A study of Mus musculus with 13 samples.

Results

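Binding of BLIMP1 was described in the epithelium of the embryonic mouse intestine at E16.5 (E, embryonic day), sampled as 2 ChIP-seq libraries, and set against 5 other cell types. Peak summits (1 position per called peak) of all 12 ChIP libraries were merged where they lay at most 200 bp apart. A region counted as bound where each of the 2 libraries of that cell type contributed a summit. Of 155003 merged regions, 41901 were bound in at least 1 cell type, and 4956 of these were bound in the intestinal epithelium. All cells came from C57BL/6 mice homozygous for an EGFP knock-in that tags BLIMP1 at its N-terminal end. The tag was precipitated with the anti-GFP antibody ab290. The groups thus share a genotype, and besides cell type they differ in age, in culture and in cell number. The intestinal cells were GFP+ EPCAM+ cells sorted from the stretch between the caudal duodenum and the ileocecal junction. The other groups were KIT+ primordial germ cell-like cells after 2 days of culture with LIF and BMP4 (d2 PGCLC), SSEA1+ integrin beta-3+ cells after 6 days with LIF, BMP4, BMP8a, SCF and EGF (d6 PGCLC), and SSEA1+ primordial germ cells (PGC) of male and of female embryos at E12.5. Somatic cells were GFP+ photoreceptor precursors of the retina at postnatal day 4 and GFP+ CD138+ plasmablasts, made from B cells by 3 days with IL-4 and LPS. The 1 male and 1 female E12.5 library were treated as the 2 libraries of that cell type. Every group thus carries a tagged BLIMP1, and none is a control without it.

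BLIMP1, the product of Prdm1, binds DNA through zinc fingers and recruits chromatin-modifying partners, mostly to repress transcription. In the fetal gut it is made by the epithelium before weaning, and it is known for holding back genes of the mature enterocyte. The same protein acts in germ cell specification, in photoreceptor fate and in antibody-secreting cells. Its best-known recognition sequence contains the letters GAAAG and often GAAAGTG, and resembles the sites of interferon regulatory factors.

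The 2 intestinal libraries listed 7998 and 12115 summits, and the other 10 libraries from 10861 to 76185, the highest in d6 PGCLC replicate 1. In units of 1e5 cells, the intestinal libraries were made from 10 and 8.8, and the others from 3 to 30, both of these in d2 PGCLC. The lists hold positions only, with no height or read depth. The part of depth, threshold or cell number in the length of a list was not tested. Of the regions with a summit of intestinal replicate 1, 62.6% also held one of replicate 2, and 41.4% the other way round. Whether the replicates are separate animals is not given in the labels, so their agreement may be technical. Regions seen in both intestinal libraries were bound in another cell type in 69.2% of cases, those seen in replicate 1 alone in 29.1% and those in replicate 2 alone in 35.9%. Inside bound regions the 2 libraries placed their summits a median of 51 bp apart, and 49.5% lay within 50 bp of each other. In stretches of 1 Mb the highest count of bound regions was 16, reached in 2 of them. On chromosome 9 the 16 lay between 3000093 and 3036079, and on chromosome 11 they spread from 69059568 to 69980767. No filter for repeats or input signal was applied here, so whether such a cluster reflects binding was not tested.

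Promoter sequences show the range of intestinal sites, and 7 are printed here because they contrast starts bound in the intestine with no other cell type near (Vil1, Sis, Ugt2b34), a start bound also in plasmablasts (Cxcl10) and starts bound in all 6 cell types (Erbb2, Rbck1, Erap1). They were picked after their motifs had been seen. Each is the 250 bases before the gene start on the gene's own strand, from RefSeq on GRCm38.p6, the assembly of mm10. Capitals mark GAAAG, read as CTTTC on the other strand, and the full GAAAGTG, read as CACTTTC, where present.
Vil1, chr1:74409134-74409383, plus strand: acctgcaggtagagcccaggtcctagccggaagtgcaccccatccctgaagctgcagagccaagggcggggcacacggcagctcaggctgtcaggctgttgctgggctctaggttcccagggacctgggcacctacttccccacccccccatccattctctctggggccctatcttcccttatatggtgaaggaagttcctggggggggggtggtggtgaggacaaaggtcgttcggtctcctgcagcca
Sis, chr3:72967864-72968113, minus strand: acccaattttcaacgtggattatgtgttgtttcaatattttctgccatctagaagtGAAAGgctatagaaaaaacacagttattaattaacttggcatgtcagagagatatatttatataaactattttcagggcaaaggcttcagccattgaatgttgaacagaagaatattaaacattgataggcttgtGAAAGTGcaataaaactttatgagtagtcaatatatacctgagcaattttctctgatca
Ugt2b34, chr5:86906938-86907187, minus strand: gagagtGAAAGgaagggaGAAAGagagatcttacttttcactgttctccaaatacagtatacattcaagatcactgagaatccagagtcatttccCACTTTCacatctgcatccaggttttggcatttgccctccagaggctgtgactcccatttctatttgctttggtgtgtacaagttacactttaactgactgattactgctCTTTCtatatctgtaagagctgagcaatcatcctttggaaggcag
Cxcl10, chr5:92348890-92349139, minus strand: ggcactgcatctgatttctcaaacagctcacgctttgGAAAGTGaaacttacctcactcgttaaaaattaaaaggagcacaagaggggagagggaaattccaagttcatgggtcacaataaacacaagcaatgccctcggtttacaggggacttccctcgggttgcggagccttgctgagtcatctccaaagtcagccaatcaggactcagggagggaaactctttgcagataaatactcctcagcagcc
Erbb2, chr11:98412234-98412483, plus strand: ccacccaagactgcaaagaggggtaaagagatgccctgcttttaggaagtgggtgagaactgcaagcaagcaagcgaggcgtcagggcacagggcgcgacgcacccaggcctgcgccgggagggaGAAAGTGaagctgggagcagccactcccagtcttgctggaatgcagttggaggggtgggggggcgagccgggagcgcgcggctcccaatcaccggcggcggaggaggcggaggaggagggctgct
Rbck1, chr2:152332426-152332675, minus strand: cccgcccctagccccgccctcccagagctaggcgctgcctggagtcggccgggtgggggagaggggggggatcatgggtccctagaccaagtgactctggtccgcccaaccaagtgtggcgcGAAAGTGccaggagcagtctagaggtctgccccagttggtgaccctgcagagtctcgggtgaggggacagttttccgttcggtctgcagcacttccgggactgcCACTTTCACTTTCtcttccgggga
Erap1, chr13:74639603-74639852, plus strand: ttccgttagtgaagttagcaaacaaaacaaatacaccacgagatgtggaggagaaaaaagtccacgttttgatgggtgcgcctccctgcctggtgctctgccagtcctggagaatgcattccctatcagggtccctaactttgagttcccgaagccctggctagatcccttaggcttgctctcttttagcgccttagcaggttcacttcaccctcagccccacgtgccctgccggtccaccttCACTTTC
The Vil1 stretch held neither GAAAG nor GAAAGTG, and its intestinal summits lay at 14 bp after and 32 bp before the start. In Sis the GAAAGTG lay 59 to 53 bp before the start, 79 and 50 bp from the 2 summits. Rbck1 held 3 GAAAGTG, and the nearest lay 13 and 1 bp from its summits.

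Over all genes, a motif match went with a start bound in many cell types. Of 765 promoters whose start had a summit of both intestinal libraries within 300 bp, 20.0% held GAAAGTG on either strand, against 4.63% of all 21262 promoters of 300 bases. The shorter GAAAG, which every GAAAGTG contains, was in 71.8% of bound promoters against 55% of all. A repeat of GAAAG after 1 base of any kind, which also contains GAAAG, was in 4.18% against 0.508%. In the sets that follow, every cell type was judged by the same 300 bp. A promoter bound in no other type may thus have summits of other types farther off, and the 1 kb rule used below for genes gives other classes. The share with GAAAGTG was 35.5% of the 220 promoters bound in all 6 cell types, 9.85% of the 132 bound in the intestine and in no other cell type, and 5.26% of the 133 bound in the intestine and plasmablasts only. Promoters bound in plasmablasts without the intestine had it in 5.23% of 4661. Among the other cell types the shares were 24.7% for E12.5 PGC, 21.3% for d2 PGCLC, 20.8% for d6 PGCLC, 14.7% for photoreceptor precursors and 7.19% for plasmablasts. The intestine-bound promoters were also richer in GC than all promoters, with a median of 62.0% against 56.3%, and its part in the motif shares was not tested. In 122 promoters with both summits and a GAAAGTG inside the 300 bases, the median distance from summit to motif was 25 bp in either library, and 75.4% and 71.3% of summits lay within 50 bp of it. A match is a run of letters and was not tested for binding.

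**Figure D1:**
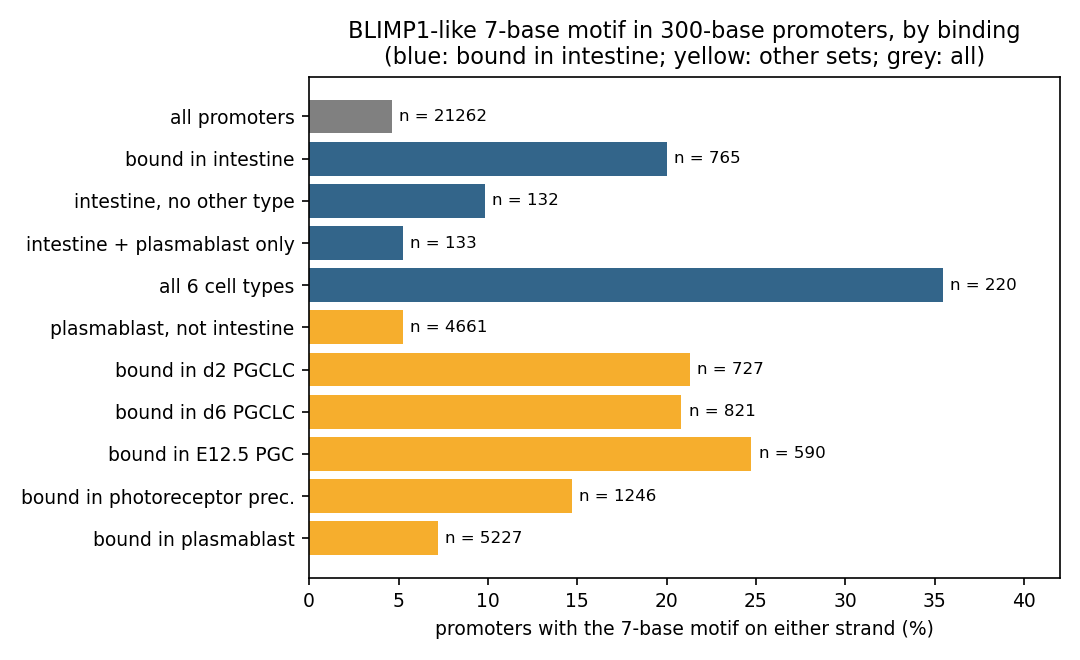
Share of 300-base promoters with the 7-base motif on either strand (x axis, percent), for all promoters and for promoters bound in each set of cell types (n beside each bar). Bound here means summits of both libraries within 300 bp of the start. The promoters bound in all 6 cell types reach 35.5% and those bound in the intestine and plasmablasts only stand at 5.26%, near the 4.63% of all promoters.

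With both intestinal libraries required, intestinal regions were shared with each germ-lineage type and with the retina more often than regions at large, by a margin that was far smaller when 1 intestinal library defined binding. Of the 4956 intestinal regions, 2432 were bound in d2 PGCLC, or 49.1% (95% exact binomial interval 47.7 to 50.5, counting error only), against 28.5% of all 41901 regions bound in at least 1 cell type. In d6 PGCLC 2341 were bound, or 47.2% against 27.2%, and in E12.5 PGC 2092, or 42.2% against 18.3%. Photoreceptor precursors shared 1761, or 35.5% against 18.8%. Plasmablasts shared most by number, 2676 or 54.0%, against 55.4% of all bound regions. Among the 36945 regions bound outside the intestine the shares were 25.8% for d2 PGCLC, 24.5% for d6 PGCLC, 15.1% for E12.5 PGC, 16.53% for photoreceptor precursors and 55.6% for plasmablasts. Neither background is a chance level. Without intestinal replicate 1 the shares, each against all bound regions counted in the same way, were 26.8% against 25.7% in d2 PGCLC, 25.9% against 24.5% in d6 PGCLC, 22.1% against 16.501% in E12.5 PGC, 19.6% against 16.9% in photoreceptor precursors and 37.6% against 49.9% in plasmablasts. Without intestinal replicate 2 they were 34.6% against 27.1%, 33.3% against 25.8%, 29.8% against 17.4%, 25.0% against 17.9% and 40.6% against 52.6%, in the same order of types. There were 15 alternatives, in which libraries were left out or the merging or binding rule was changed. For d2 PGCLC, E12.5 PGC and photoreceptor precursors the share stayed above its own background in all 15. Leaving out a library of some further non-intestinal type could hardly put the share below, so the count of 15 overstates the test. It left the share nearly unchanged, but the remaining library then defined binding and the background fell. Without d6 PGCLC replicate 2, all bound regions rose to 97061, and d2 PGCLC stood at 48.8% against 12.2%. The other alternatives could have put the share below, and for the types just named none did. For d6 PGCLC the share stayed above in 13. It lay below without d6 PGCLC replicate 2 (69.2% against 78.2%) and with a summit in either library (47.9% against 51.4%). For plasmablasts the share was above in 10 and below in 5, but this tally is no balance. The 10 include every alternative without a germ-lineage or photoreceptor precursor library, in which the background fell as just described. Of the rest, it was above with merging at 500 bp (59.6% against 59.3%) and a summit in either library (46.1% against 40.1%). It was below with merging at 100 bp (50.8% against 51.1%) and without any 1 intestinal or plasmablast library. The side changed with the rule used, so none can be given for that type. Read from the other side, the shared regions were 27.3% of the E12.5 PGC list, 22.4% of the photoreceptor precursor list, 20.6% of d6 PGCLC, 20.4% of d2 PGCLC and 11.5% of the plasmablast list of 23218 regions. The single d6 PGCLC libraries held 69.5% (replicate 1, the longest list) and 50.1% (replicate 2) of intestinal regions.

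**Figure D2:**
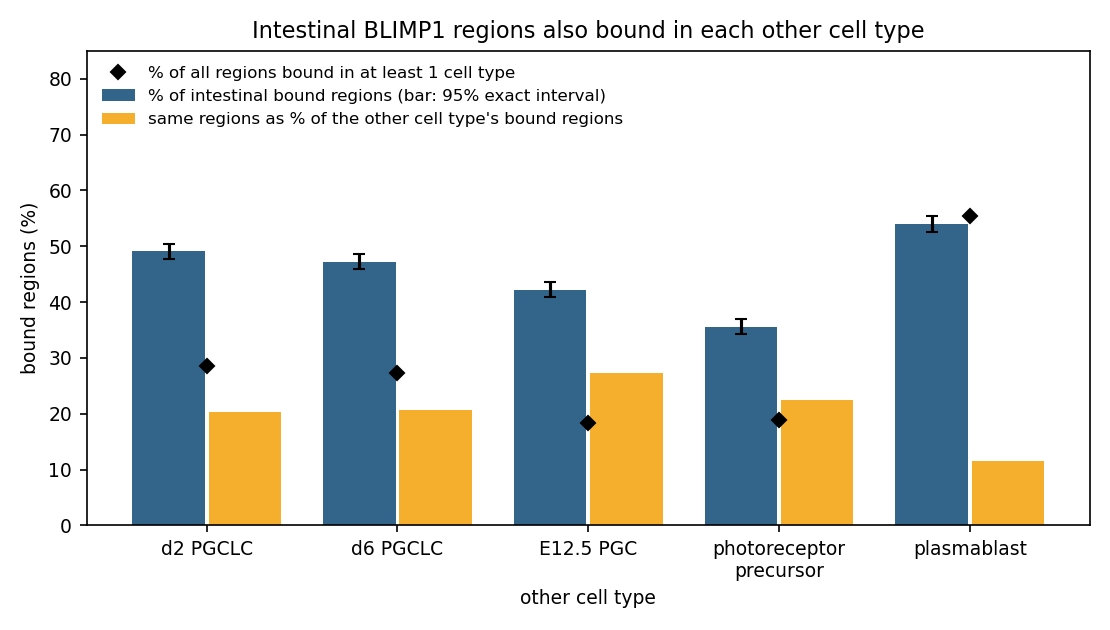
Share of bound regions (y axis, percent) for each other cell type (x axis): blue bars give the part of the 4956 intestinal regions also bound there with a 95% exact interval, yellow bars the same regions as part of the other list, and diamonds the percent of all regions bound in at least 1 cell type. The blue bar stands above the diamond in 4 cell types, and the plasmablast bar of 54.0% stands just under its diamond at 55.4%.

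By number of other cell types, the largest classes of intestinal regions were those bound nowhere else and those bound everywhere. The same count was not made for all bound regions or for another cell type. The pattern can therefore not be called particular to the intestine. The class bound nowhere else also depends on the libraries used, as given below. No other cell type bound 1524 of them, and all 5 bound 1093, while 681, 467, 542 and 649 were bound in 1, 2, 3 and 4 others. In 923 no other library of any cell type had a summit at all. Sharing with plasmablasts alone covered 423 regions, and each single germ-lineage type alone or photoreceptor precursors alone covered 38 to 93. The plasmablast list is the longest, with 23218 regions against 7666 to 11947 in the others. A region bound in several germ-lineage types counts for none of them alone. At least 1 germ-lineage type without plasmablasts or photoreceptor precursors covered 527. These patterns were not counted over all bound regions, so the numbers do not rank the types. The 3 germ-lineage types together, without the somatic types, shared 186, and with plasmablasts added 369.

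Position relative to genes differed between these classes, which are themselves set by the summits of the other lists. Those lists differ in their own share near starts, given below, and how far this fixes the class values was not tested. The intervals count regions as separate units and give counting error only. Within 1 kb of the start of a protein-coding gene lay 27.8% of all intestinal regions, 37.6% lay inside genes, 20.5% between genes within 50 kb of a start and 14.2% farther off. Only 7.69% of the 923 regions without a summit elsewhere were near a start (interval 6.06 to 9.60), with a median distance of 18729 bp. Regions shared with plasmablasts alone were near a start in 47.3% (42.4 to 52.2) and those shared with plasmablasts and photoreceptor precursors alone in 63.4% (54.7 to 71.6). Regions shared with the 3 germ-lineage types alone were near a start in 11.3% (7.13 to 16.7). The intestinal set as a whole sat between the germ-lineage types, whose bound regions were near starts in 13.8% to 15.4%, photoreceptor precursors at 25.4% and plasmablasts at 33.9%. Over all summits rather than regions, the share near starts was 29.1% ± 3.52 (SD, n = 2 libraries) in the intestine and 19.9% ± 7.69 (SD over 5 cell types) elsewhere. The difference of 9.27 percentage points did not stand out among the 6 cell types (exact permutation test, two-sided, p = 0.3333), and this design cannot give a p below 0.167.

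**Figure D3:**
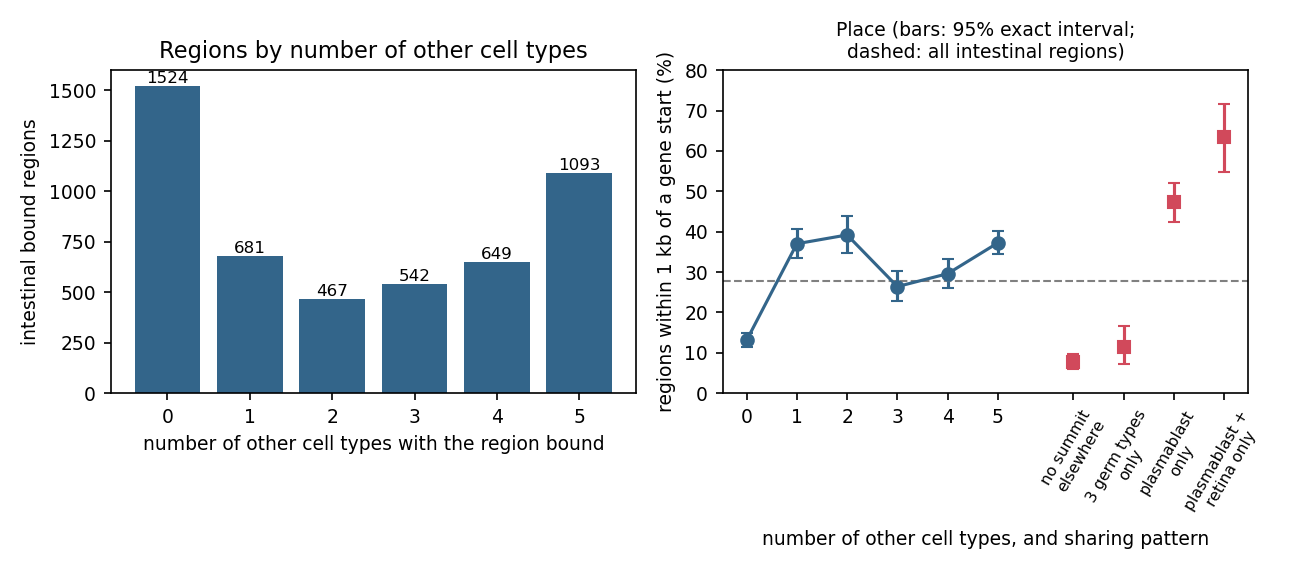
Left, number of intestinal bound regions (y axis) by how many of the 5 other cell types bound them (x axis). Right, percent of regions within 1 kb of a gene start (y axis) for the same classes (blue) and for 4 sharing patterns (red), with 95% exact intervals: regions with no summit elsewhere stand at 7.69% and those shared with plasmablasts and retina only at 63.4%.

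Near gene starts, 1618 of 21883 protein-coding genes, 7.39%, had a summit of both intestinal libraries within 1 kb. Such genes are called bound, although this rule does not ask for both summits in the same region. Of the 1618, 1475 had a region bound in the intestine within 1 kb. Replicate 1 alone reached 9.76% of genes and replicate 2 alone 17.1%. For 4392 genes without a start in the reference either gene end was used, which gave 300 of the 1618. Where a gene had several starts or ends, each library was measured to the nearest of them. The 2 distances printed for a gene may thus belong to different starts or ends. Of the bound genes, 364 shared a bound region with another gene, so their assignment is uncertain. In other cell types 527 of the 1618 were bound in all 5, 345 in 1 and 90 in none. Plasmablasts bound 1432 of them, 88.5%, against 41.1% of all genes, photoreceptor precursors 932 or 57.6% against 10.2%, d6 PGCLC 932 or 57.6% against 9.61%, d2 PGCLC 905 or 55.9% against 8.23%, and E12.5 PGC 760 or 47.0% against 5.78%. The background of all genes takes in genes bound in no cell type, and sharing of a gene needs no common site. Gene shares can therefore not be set beside the region shares above. Plasmablasts were the only partner for 319 genes, and the other 4 types for 10 or fewer each.

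The intestinal markers given for the tissue were bound, but to different extents elsewhere. Vil1, which encodes the brush-border actin bundler villin, had summits 14 and 32 bp from its start in the 2 intestinal libraries. The nearest summits in other libraries lay at 22536 and 7317 bp in d2 PGCLC, 7273 and 7020 bp in d6 PGCLC, 40893 bp in male and 22681 bp in female E12.5 PGC, 40877 and 22439 bp in photoreceptor precursors and 11803 and 12212 bp in plasmablasts. The distances of intestinal and other libraries did not overlap at Vil1, but how many of all genes separate in this way was not counted. Klf5, a zinc-finger factor of proliferating crypt cells, was bound in all 6 cell types, at 76 and 83 bp in the intestine and at 18 to 208 bp elsewhere. Gata6, an endoderm GATA factor, had intestinal summits at 79 and 92 bp of a gene end, and 2 other libraries came within 1 kb, d6 PGCLC replicate 1 at 188 bp and d2 PGCLC replicate 2 at 223 bp. Further epithelial genes were not bound within 1 kb in the intestine: the nearest summits lay at 3536 and 7734 bp for the intestinal fate factor Cdx2, at 32144 and 5207 bp for Hnf4a, at 7709 and 5414 bp for Cdh1 (E-cadherin) and at 22372 and 24157 bp for Epcam, the surface marker of the sort. A summit shows binding and not expression, so these values do not test the identity of the cells.

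In 20 bound genes, 0.0914% of all, no library of another cell type had a summit within 5 kb of the start. The 15 of them with the closest intestinal summits, Vil1 included, are named here and were put in order of their known roles after they had been seen, so no share of any role is given. Sis, the brush-border sucrase-isomaltase, had intestinal summits at 135 and 106 bp, and the nearest summit elsewhere lay at 86125 bp. Alpi, the intestinal alkaline phosphatase, had them at 194 and 160 bp against 51241 bp at the nearest elsewhere. Both are products of the enterocyte surface. Conjugating or oxidising enzymes were Ugt2b34 (a glucuronosyltransferase, 88 and 76 bp), Cyp2d26 (133 and 176 bp) and Cyp3a13 (332 and 399 bp), which are cytochromes P450, and Mgst1 (a glutathione transferase, 352 and 392 bp). Ces2c, a carboxylesterase, had summits at 81 and 134 bp, and H6pd, the hexose-6-phosphate dehydrogenase of the endoplasmic reticulum, at 38 and 266 bp. The remaining genes named by distance were Ms4a18 (156 and 26 bp) and Ms4a12 (150 and 133 bp), which encode membrane-spanning proteins, Lysmd4 (35 and 184 bp), Gm38499 (261 and 353 bp), Cdc42ep5 (an effector of the GTPase CDC42, 401 and 303 bp) and Ovol1, a zinc-finger factor of epithelia (298 and 257 bp). Being without a summit elsewhere is what put these genes in the group and is no finding on its own.

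**Figure D4:**
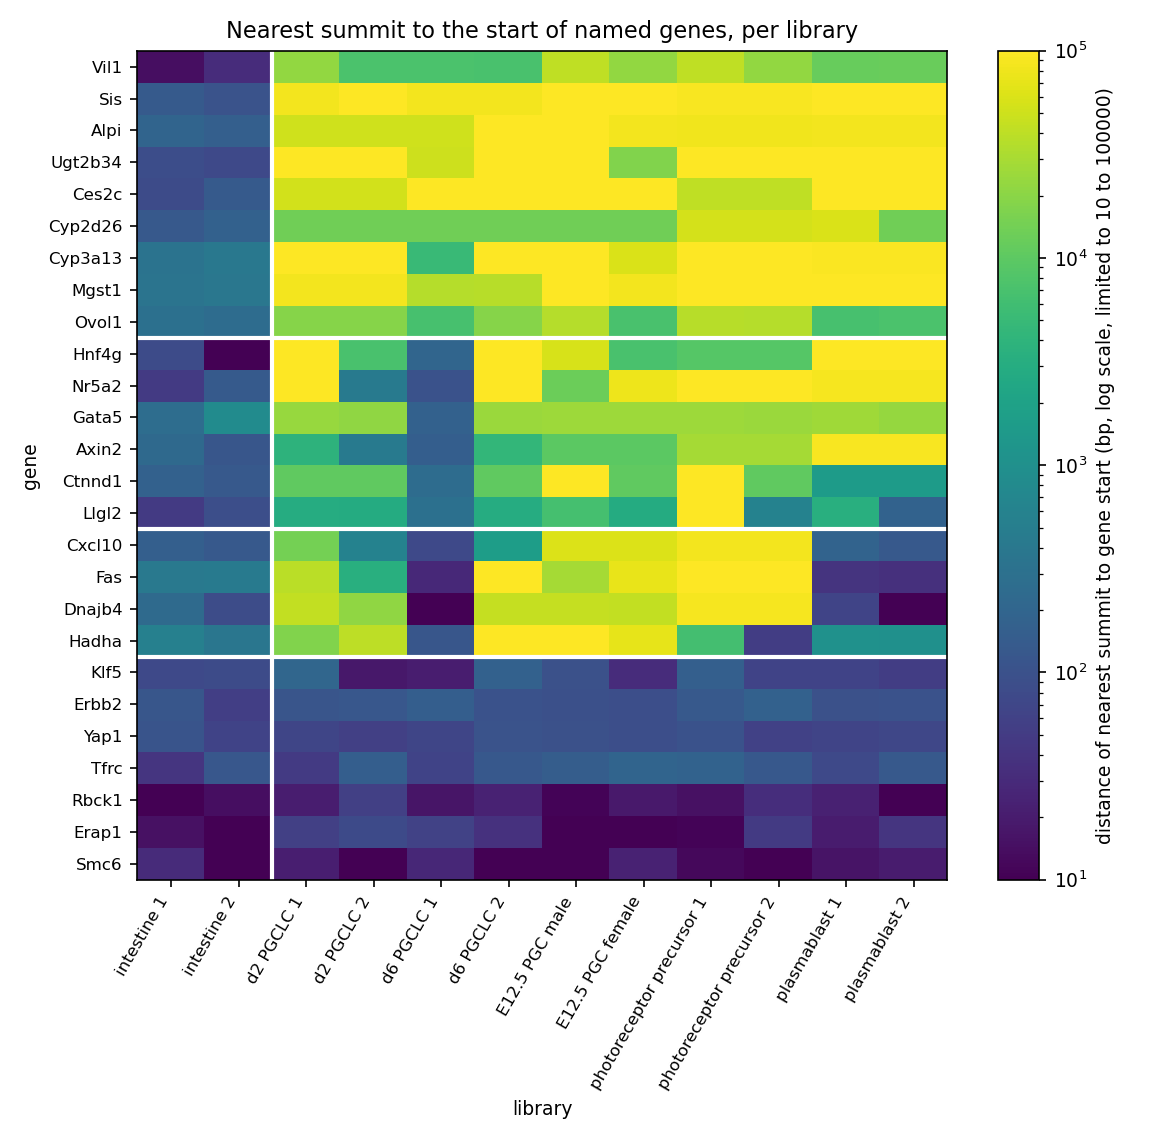
Distance in bp from the nearest summit to the nearest gene start, for named genes (y axis) in the 12 libraries (x axis). Colour is on a log scale, limited at both ends, and either gene end was used where the reference gives no start. The top block is near only in the 2 intestinal columns, the 2 middle blocks are near in the intestine and in some other libraries, most often d6 PGCLC replicate 1, and the bottom block is near in all 12.

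Both clusters of microRNA genes of the miR-200 family, known for keeping cells epithelial by targeting ZEB repressors, each had a region bound in the intestine upstream of them. Their mature sequences, from RefSeq, are shown with the seed (bases 2 to 8) in capitals because the seeds tie the clusters together, together with miR-203, an epithelial microRNA bound in every cell type.
mmu-miR-200c-3p: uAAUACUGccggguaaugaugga
mmu-miR-141-3p: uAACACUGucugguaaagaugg
mmu-miR-200b-3p: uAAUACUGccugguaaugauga
mmu-miR-200a-3p: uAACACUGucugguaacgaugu
mmu-miR-429-3p: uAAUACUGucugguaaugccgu
mmu-miR-203-3p: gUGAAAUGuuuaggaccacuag
The seed AAUACUG is shared by miR-200c, miR-200b and miR-429, and AACACUG by miR-141 and miR-200a. On chromosome 6 the hairpin of Mir200c (chr6:124718322-124718390, minus strand) had summits at 124718943 and 124718937 in the 2 intestinal libraries, 553 and 547 bp upstream of it and 958 and 952 bp from that of Mir141 (chr6:124717914-124717985, minus strand). No other library had a summit in that region, but only by the limit of 200 bp used for merging: plasmablast replicate 2 had a summit 201 bp from it on one side, at 124719144, and d6 PGCLC replicate 2 one 202 bp from it on the other, at 124718735. Merged at 500 bp, the region took in summits of 8 other libraries and was bound in 4 other cell types. Plasmablast replicate 2 also had a summit 100 bp from the hairpin of Mir200c, and Mir141 counted as bound in plasmablasts, at 778 and 237 bp. On chromosome 4 a region bound in the intestine at chr4:156057150-156057319 lay 1400 bp upstream of Mir200b (chr4:156055681-156055750, minus strand), and no other library had a summit in it. The nearest, of d6 PGCLC replicate 1, was 2344 bp away, and merging at 500 bp added none. The nearest summits of germ-lineage libraries to Mir200b lay at 3913 to 15134 bp, of plasmablasts at 19318 and 19404 bp and of photoreceptor precursors at 54168 and 54155 bp. That second cluster was looked up after the first had been seen, and it lies outside the 1 kb rule. Of 1005 hairpins in the reference, 17 or 1.69% were within 1 kb of a summit in both intestinal libraries, against 9.55% in plasmablasts, 3.68% in d6 PGCLC, 3.28% in d2 PGCLC, 2.59% in photoreceptor precursors and 1.69% in E12.5 PGC. Mir203 (chr12:112130880-112130955, plus strand) was among them, at 593 and 483 bp in the intestine and at 15 to 524 bp in germ-lineage libraries, as were Mir132 at 234 and 0 bp and Mir212 at 503 and 217 bp, which were bound in 4 other cell types each. Of 9534 genes for long non-coding RNA, the intestine bound 229, or 2.4%, with 13.2% in plasmablasts, 3.83% in photoreceptor precursors, 2.57% in E12.5 PGC, and 3.77% and 4.31% in d2 and d6 PGCLC.

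Functions beyond the intestinal markers were followed through 28 gene lists with 881 genes. The intestine bound 127 of these, 14.4%, against 7.39% of all protein-coding genes. The lists hold well-studied genes, 22 of them lay above that background, and 13 stood above 2 times it, so a share over 7.39% alone does not set a list apart. The median over the lists was 13.0%.

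Genes that make an epithelial sheet were bound in part. Of 33 junction and polarity genes 9 were bound, 27.3%, while d2 PGCLC bound 7, d6 PGCLC 5, E12.5 PGC 1, photoreceptor precursors 1 and plasmablasts 12. The plasmablast count lies below the 41.1% of all genes bound in that type. Ctnnd1, which encodes the cadherin partner p120 catenin, had intestinal summits at 173 and 132 bp of a start and was bound in no other cell type, although d6 PGCLC replicate 1 had a summit at 263 bp. Llgl2, a basolateral polarity protein, had summits at 47 and 91 bp and 3 single libraries of other types within 1 kb. Grhl2, an epithelial transcription factor, was at 459 and 401 bp and was bound also in d2 PGCLC only, and Esrp1, an epithelial splicing factor, at 53 and 475 bp and in 1 other type. The tight-junction genes Cldn7 (131 and 27 bp) and Cldn23 (250 and 131 bp) were bound, while Tjp1 had no intestinal summit within 5 kb. None of 26 keratin, integrin and basement membrane genes was bound in both libraries, and 4 had a summit in 1. A count of 0 allows up to 3, so it cannot be told from the share of all genes. With a window of 5 kb 3 of the 26 were bound, 11.5% against 11.4% of all genes. Of the same genes d2 PGCLC bound 1, d6 PGCLC 2, E12.5 PGC 0, photoreceptor precursors 2 and plasmablasts 8.

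Several transcription factor families of the endoderm were bound in part. Among 40 nuclear receptors 10 were bound, 25.0%, against 14 in plasmablasts, 9 in photoreceptor precursors, 8 in each of d2 and d6 PGCLC and 3 in E12.5 PGC. The plasmablast count again lies below the 41.1% of all genes bound in that type. Hnf4g, a paralogue of Hnf4a in enterocytes, had summits at 82 and 0 bp of a gene end, and Nr5a2, a regulator of bile acid and crypt genes, at 47 and 135 bp. Both were bound in no other cell type, though d6 PGCLC replicate 1 had summits at 205 and 102 bp, and Nr5a2 had one of d2 PGCLC replicate 2 at 443 bp. The retinoic acid receptor genes Rara (60 and 418 bp) and Rarb (870 and 941 bp) were bound as well, whereas the vitamin D receptor gene Vdr and Pparg had no intestinal summit within 5 kb. Of 33 GATA, FOX and SOX genes 5 were bound: Gata5 (267 and 863 bp) and Gata6 in no other cell type, Foxd1 and Foxq1 in 4 others and Foxp1 in all. Foxa2, an endoderm pioneer factor, had none within 5 kb. Of 26 KLF and SP genes 5 were bound, and of these Klf5, Klf6, Klf9 and Klf11 were bound in all 6 cell types and Klf3 in 2 others. Of 32 AP-1 and immediate early genes 6 were bound, Jun and Atf3 among them, and Fos was not approached within 5 kb.

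Lists of signalling pathway genes were bound at 2 to 7 genes each. Of 38 WNT genes 6 were bound, 15.8%. Axin2, the feedback inhibitor that WNT itself induces, had intestinal summits at 235 and 118 bp and was bound in no other cell type, with d2 PGCLC replicate 2 at 450 bp and d6 PGCLC replicate 1 at 158 bp. Apc, the scaffold of the beta-catenin destruction complex, was bound at 616 and 731 bp and in plasmablasts. Ctnnb1, which encodes beta-catenin (11 and 37 bp), its DNA-binding partner Tcf7l2 (822 and 851 bp) and Bcl9l were bound in all 6 cell types. Among 35 genes of EGF, FGF and RAS-MAPK signalling 7 were bound, 20.0%, of which Spry1, Spry2, Spred1, Lrig1 and Lrig3 encode feedback inhibitors and Erbb2 and Igf1r receptors. Lrig1 (202 and 253 bp), a stem cell gene that restrains ERBB receptors, was shared with photoreceptor precursors only and carried 5 bound regions within 5 kb of its body. Egfr itself had no summit within 5 kb. The BMP, TGF-beta and activin list had 4 of 34 bound (Smad3, Smad4, Tgfbr3 and Tgif1), the Hippo list 2 of 21 (Yap1 and Tead2) and the Hedgehog list 2 of 16 (the receptor gene Ptch1 and Gli3), and the ligand gene Ihh had none within 5 kb.

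Among metabolic lists the highest share was in fatty acid oxidation and peroxisomes. There 8 of 32 genes were bound, 25.0%, against 24 in plasmablasts and 3 to 6 in the other 4 types. Hadha and Hadhb, the subunits of the mitochondrial trifunctional protein, are divergent neighbours and had summits at 552 and 371 bp and at 279 and 98 bp, which may be the same summits. Acaa1a, a peroxisomal thiolase, had them at 42 and 82 bp. Acadl and Acaa2 act in mitochondrial oxidation, and Pex3 and Pex11a in the making of peroxisomes. Glycolysis and gluconeogenesis had 4 of 33 (Pgam1, Eno1, Pkm and Khk, the fructose kinase, at 60 and 183 bp), and cholesterol and fatty acid synthesis 3 of 34, Cyp51 and Dhcr7 among them. Iron and haem genes had 2 of 28, the transferrin receptor gene Tfrc and Ppox, both bound in all 6 cell types.

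Lists of RNA processing, translation and stress genes were bound as follows. Splicing factors had 12 of 45 bound, 26.7%, and 11 of these were bound elsewhere, with Hnrnpl (498 and 3 bp) in no other cell type. Translation initiation and tRNA synthetase genes had 8 of 43, heat shock and chaperone genes 6 of 35 (Hspd1 and Hspe1 share a divergent promoter), p53 targets and growth arrest genes 6 of 30, the integrated stress response 4 of 31, the circadian clock 4 of 19, and Polycomb, SWI/SNF and histone deacetylase genes 5 of 42. Dnajb4, a co-chaperone gene, was bound at 239 and 85 bp and in plasmablasts only. The death receptor gene Fas, at 416 and 428 bp, was likewise shared with plasmablasts only. In NF-kB and innate sensing 5 of 38 were bound, among them the chemokine gene Cxcl10 at 161 and 130 bp, shared with plasmablasts, whose summits lay at 190 and 130 bp, and Tlr3, the sensor of double-stranded RNA, at 475 and 208 bp. Tlr4 and Nfkb1 had no intestinal summit within 5 kb. Mucin and O-glycosylation genes had 3 of 33 bound and none of them a mucin, with Muc2, the goblet cell mucin gene, not approached within 5 kb. Lysosome and autophagy genes had 2 of 42.

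Genes that mark other cells of the gut wall were not bound within 1 kb of their starts. In the intestine 0 of 23 genes of mesenchyme and smooth muscle, 0 of 24 of endothelium and blood and 0 of 20 of enteric neurons and glia were bound in both libraries. The share of all genes was 7.39%. A count of 0 allows up to 3 bound genes, so in lists this short no single 0 sets its list below that share. Other cell types also bound few of the 3 lists, in that order. E12.5 PGC bound 0, 1 and 0, d2 PGCLC 2, 1 and 2, and d6 PGCLC 4, 1 and 1. Photoreceptor precursors bound 3, 1 and 1 and plasmablasts 5, 5 and 1, so low counts were not particular to the intestine. No intestinal summit lay within 5 kb of 21, 22 and 19 of them, Col1a1, Pecam1 and Sox10 among these. With a window of 5 kb, 1 gene of endothelium and blood and 1 of enteric neurons and glia counted as bound, against 11.4% of all genes. A single intestinal library reached within 1 kb of 2 endothelium and blood genes and of none in the other 2 lists.

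**Figure D5:**
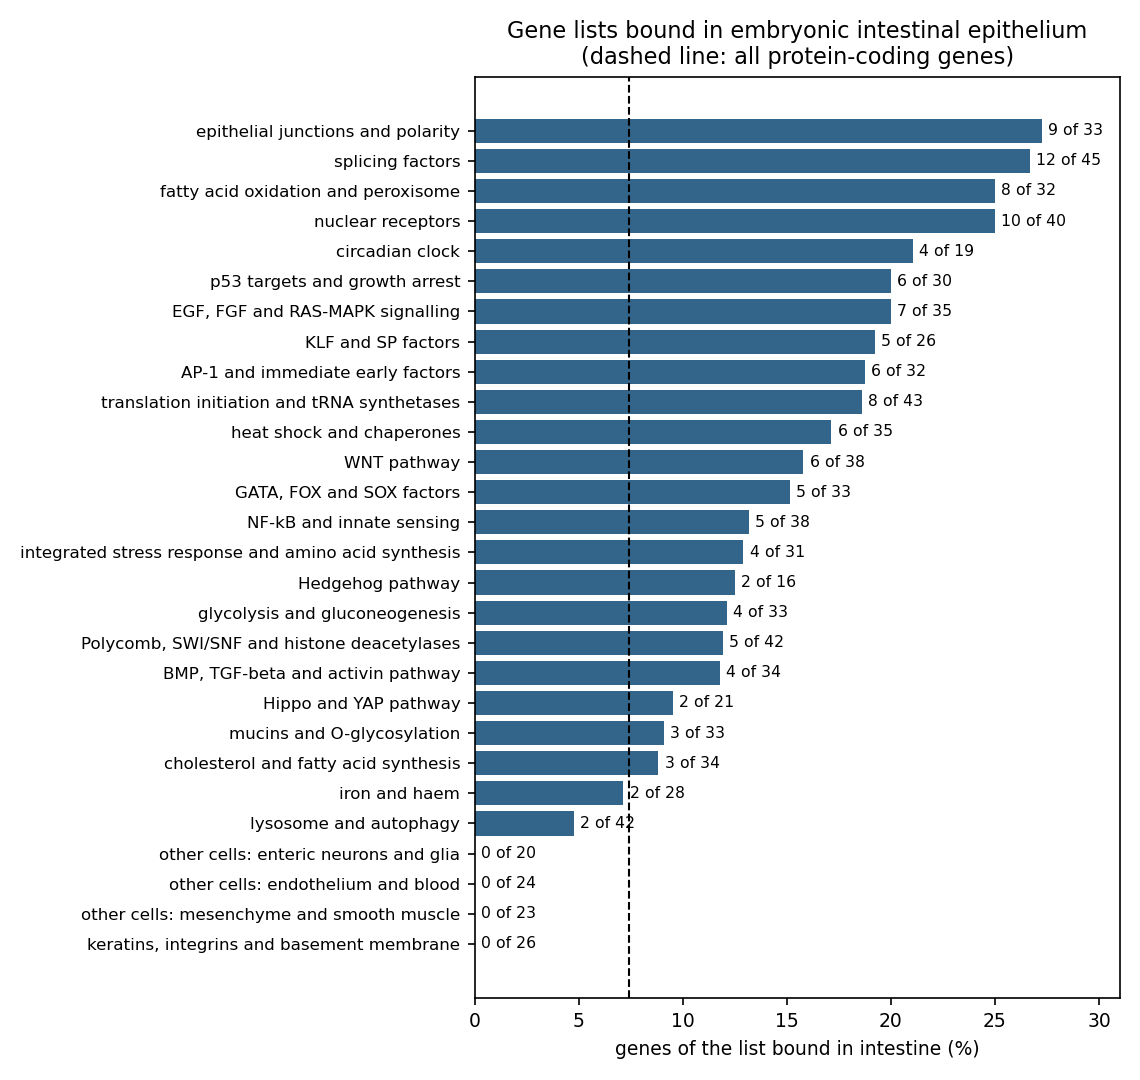
Percent of the genes of each of 28 lists that were bound in the intestine (x axis; count beside each bar), with the 7.39% of all protein-coding genes as a dashed line. Epithelial junction, splicing, fatty acid oxidation and nuclear receptor genes stand at 25.0% or above, and 4 lists at 0.

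The genes shared with 1 other cell type only, or with all, were named by distance to the nearest start in each library. For Atp5d, 1 start had intestinal summits at 37 and 10 bp and another at 3 and 50 bp. For Rbpj they lay at 118 and 92 bp of 1 start and at 258 and 48 bp of another. The pairs printed below for these genes therefore mix starts. With plasmablasts only, the closest were Epg5 (autophagy, 2 and 12 bp), Wwox (3 and 13 bp), Ankrd54 (14 and 10 bp), Selenoi (phospholipid synthesis, 9 and 20 bp) and Mtres1 (27 and 5 bp). With photoreceptor precursors only, they included Rbpj, the DNA-binding effector of Notch (118 and 48 bp), Tbx3 (152 and 151 bp) and Cxcl16 (96 and 30 bp). Pou4f3 (161 and 71 bp) and Stc2 (159 and 308 bp) were among the 8 shared with d6 PGCLC only, H2-T3 (14 and 77 bp), which encodes the nonclassical class I molecule of gut epithelium, and Grn (151 and 498 bp) among the 7 shared with d2 PGCLC only, and Hsd17b14 (99 and 80 bp) was the 1 shared with E12.5 PGC only. Among the 527 bound in all cell types, the closest to any of their starts were Atp5d (3 and 10 bp), Rbck1 (2 and 14 bp), Cdc14a (4 and 16 bp), Hspe1 (7 and 14 bp), Erap1 (15 and 8 bp), Timm10b (14 and 10 bp), Gucd1 (8 and 21 bp), Plekha3 (33 and 1 bp), Smc6 (31 and 3 bp) and Spag5 (13 and 21 bp). Their products serve in ATP synthesis, ubiquitin ligation, peptide trimming for MHC class I, protein import and chromosome maintenance. Most bound regions within 5 kb of the body were at Auts2 and Foxn3, with 7 each, long genes whose starts were not bound in the intestine.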

How the data were processed

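ChIP-seq summit lists of 12 libraries were used, and the input library was not analysed here. The submitters' processing notes name Trim Galore 0.3.7 and cutadapt 1.7.1, Bowtie 1.1.2, MACS2 2.1 and build mm10. Each deposited list gives chromosome and position per summit, without any height or score. How peaks were thresholded, which control was used and whether positions count from 0 or 1 is not given in the sources used here, and a printed position may be off by 1 bp.

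Groups came from the labels. Summits on chromosomes 1 to 19, X and Y were merged by single linkage at 200 bp with pandas 2.3.3 and numpy 2.4.6 in Python 3.11.15. The merging and counting were tested on simulated data. Genes, starts and sequences came from RefSeq tables of GRCm38.p6, in which each promoter has 250 bases before and 50 after the start. The planned start rule used either gene end where no start was given. Exact intervals and the exact permutation test over cell types used scipy 1.17.1. Regions and genes are not replicates, so no test was run over them. Named genes were, per list, up to 6 bound members with fewest other cell types, then by distance, the closest members of each sharing class, the markers and up to 2 unbound well-known members per list; some further list members, chosen after their values were seen, are named as well. Some list members are counted but not reported here by name. The members and lists were chosen with earlier results of these data known. Alternatives were merging at 100 or 500 bp, windows of 500 bp or 5 kb, gene ends in place of starts, a summit in either library, other motif lengths and leaving out libraries.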

Additional observations from a re-analysis of the deposited data

Results flagged for a closer look

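Summits outside chromosomes 1 to 19, X and Y entered no comparison. Intestinal replicate 1 listed 17 summits on the mitochondrial chromosome and on unplaced or random contigs, and replicate 2 listed 14. The other 10 libraries listed from 4 to 25, so the intestinal numbers lie within their range.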

How the results depend on the processing

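The main limits are the absent read depth and the 2 libraries per cell type. The lowest and highest counts of intestinal bound regions with 1 intestinal library left out were 7927 and 11988, and of bound genes 2136 and 3742, since a single library then defines binding. The shares of regions bound in d2 PGCLC, d6 PGCLC, E12.5 PGC, photoreceptor precursors and plasmablasts ran from 26.8% to 57.9%, 25.9% to 69.2%, 22.1% to 53.02%, 19.6% to 41.8% and 37.6% to 58.7% with 1 library left out. Regions bound in no other type ran from 1130 (without d6 PGCLC replicate 2) to 6069 (without intestinal replicate 1), or 3663 without intestinal replicate 2, and those bound in all from 1094 to 1182. With 1 or the other intestinal library left out, the gene shares in the same order were 32.04% and 46.1%, 33.9% and 48.3%, 25.3% and 37.9%, 37.2% and 49.3%, and 86.0% and 86.2% (lower value first).

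Merging at 100 bp gave 50.8% in plasmablasts. Merging at 500 bp gave 51.1%, 50.1%, 43.7%, 37.6% and 59.6% in that order of types. With a summit in either library there were 14930 regions, 5322 bound in no other type and 2150 in all, with 35.2% in d2 PGCLC, 31.4% in E12.5 PGC, 26.8% in photoreceptor precursors and 46.1% in plasmablasts. The same rule gave 4260 genes, with 49.4%, 73.6%, 41.8%, 51.6% and 91.5% in the 5 types. A window of 500 bp gave gene shares of 49.9%, 49.5%, 43.8%, 55.1% and 82.0%, and 5 kb gave 2490 genes with 59.5% for d2 PGCLC, 61.6% for d6 PGCLC and 52.8% for photoreceptor precursors. The background of region sharing was first taken over regions bound outside the intestine and was changed, after its values were seen, to all bound regions. The photoreceptor precursor background moved from 16.53% to 18.8% and that of E12.5 PGC from 15.1% to 18.3%, and the order of share and background was the same under both in all 5 types. The backgrounds under each alternative and the merging at 500 bp of the miR-200 regions were added after seeing the data. Of the 28 lists, 20 stayed above the share of all genes under all 7 settings of the gene count. Hedgehog, mucin, iron, lysosome and keratin lists changed side under some of them. The largest such move was for lysosome and autophagy genes, 18 of 42 with a summit in either library against 19.5% of all genes.

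Of the summits of intestinal replicate 1, 58.8% lay within 200 bp of one of replicate 2, 46.2% within 100 bp and 68.7% within 500 bp. Leaving out an intestinal library made no such pair. The share with a motif was 20.0% for GAAAGTG, 71.8% for GAAAG, 4.18% for GAAAG repeated after 1 base and, chosen after seeing the data, 28.5% for GAAAGTG with both summits inside the 300 bases. The difference in summits near starts ran from 6.78 to 11.8 percentage points with a library left out, with exact permutation p from 0.1667 to 0.8333. With the replicate number as a replicate block it was 7.81, over the 4 other cell types that carry numbers. The samples share only a number, and replicate 2 lay above replicate 1 in 2 of those 4 types.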
